A study of Homo sapiens with 16 samples.

Results

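Mismatch repair removes bases that were paired wrongly during DNA replication, and 6 genes of this pathway are described here: MSH6, MSH3, PMS2, PMS1, MLH3 and EXO1. They were chosen by name, because loss of mismatch repair is linked to platinum tolerance, and are 6 of the 60448 gene identifiers measured. All 6 passed the filter on low values, an average of 0.5 FPKM or more (fragments scaled by gene length and library depth), over the 16 libraries. RNA sequencing was done on A549, an established human lung adenocarcinoma line, and on A549/cDDP, its cisplatin-resistant derivative, to follow cisplatin in both lines and a knockdown of the long noncoding RNA SCAT7 in the resistant one. The 8 groups hold 2 libraries each. They are A549/cDDP with a gapmer against SCAT7 in cisplatin and in solvent, A549/cDDP with a control gapmer in cisplatin and in solvent, untransfected A549/cDDP in cisplatin and in solvent, and untransfected A549 in cisplatin and in solvent. A gapmer is a short antisense oligomer through which RNase H cuts the matching RNA. Per the labels' protocols, 12 pmol of gapmer was transfected into 35000 cells, drug or solvent was given for 24 h at a labelled 15 mM cisplatin, and transfected cells were collected at 48 h. A549/cDDP is passaged in medium with cisplatin at that labelled concentration, so the solvent groups of this line had met the drug before the experiment.

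As background, a MutS dimer finds the mismatch: the dimer with MSH6 binds mispaired bases and small loops, and the dimer with MSH3 binds larger loops. A MutL dimer follows, in which PMS2 carries the main nicking activity, while PMS1 and MLH3 are the alternative partners. EXO1 then removes the marked stretch of strand, which is filled in again by the replication machinery. The MutS dimers also bind some platinum crosslinks, and cells without mismatch repair often tolerate cisplatin better.

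Depth, estimated from the steps between low FPKM values, ran from 31350000 to 43100000 fragments per library. It was 31350000 to 33400000 in the 4 libraries with the SCAT7 gapmer and 42250000 to 43100000 in the 4 with the control gapmer. Replicates correlated at 0.991 to 0.996 across genes. The gapmer target SCAT7, listed as ELF3-AS1, was 1.69 and 2.18 FPKM with the SCAT7 gapmer in cisplatin, against 3.73 and 3.23 FPKM with the control gapmer. In solvent it was 0.594 and 0.837 FPKM with the SCAT7 gapmer, against 2.56 and 3.57 FPKM with the control gapmer. CDKN1A, a cell cycle inhibitor raised by p53, was 1636 and 1611 FPKM in A549 in cisplatin, against 84.1 and 84.3 FPKM in solvent. Its group mean in untransfected A549/cDDP was 709 FPKM in cisplatin, against 577 FPKM in solvent, a much smaller difference. With the SCAT7 gapmer it was 663 FPKM in cisplatin, against 625 FPKM in solvent. With the control gapmer it was 448 FPKM in cisplatin, against 267 FPKM in solvent. Marker levels differed between the lines, here all 12 A549/cDDP libraries, transfected or not, against the 4 untransfected A549 libraries. The 6 epithelial markers summed to between 5200 and 6964 FPKM in A549/cDDP, against 6750 to 8429 FPKM in A549. CDH1 was 2.02 to 5.67 FPKM in A549/cDDP, against 12.0 to 14.5 FPKM in A549. EPCAM and KRT8 were also lower in every A549/cDDP library, while the ranges of KRT7 and KRT18 overlapped. KRT19 was 131 to 166 FPKM in A549/cDDP, inside its range of 90.5 to 251 FPKM in A549. The 4 lung lineage markers summed to between 2.17 and 4.59 FPKM in A549/cDDP, against 0.830 to 3.39 FPKM in A549. Of these, NKX2-1 was 0.695 to 1.34 FPKM in A549/cDDP and listed at 0 in all A549 libraries, and SFTPB and SFTPC were below 0.5 FPKM everywhere. The 8 markers of other lineages summed to between 27.3 and 52.8 FPKM in A549/cDDP, against 7.38 to 9.89 FPKM in A549, nearly all of it COL1A1, and 5 of the 8 were below 0.5 FPKM everywhere. The part of these differences in the changes between lines was not tested.

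MSH6 and EXO1 had by far the widest ranges, and the other 4 genes stayed within a narrow band. The highest and lowest group means differed 5.49-fold for EXO1 and 3.61-fold for MSH6, but 1.38-fold for PMS1, 1.34-fold for MSH3, 1.23-fold for MLH3 and 1.22-fold for PMS2. Both wide-ranging genes were highest in A549 in solvent, as were MSH3 and PMS1 by group mean within their narrower ranges. These are bulk samples, in which fewer cells with a transcript and less of it per cell cannot be told apart. Approximate fragment numbers behind a single value were 953 to 5817 for EXO1 and 8881 to 33170 for MSH6, and 1703 or more for each of the other 4 genes.

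**Figure D1:**
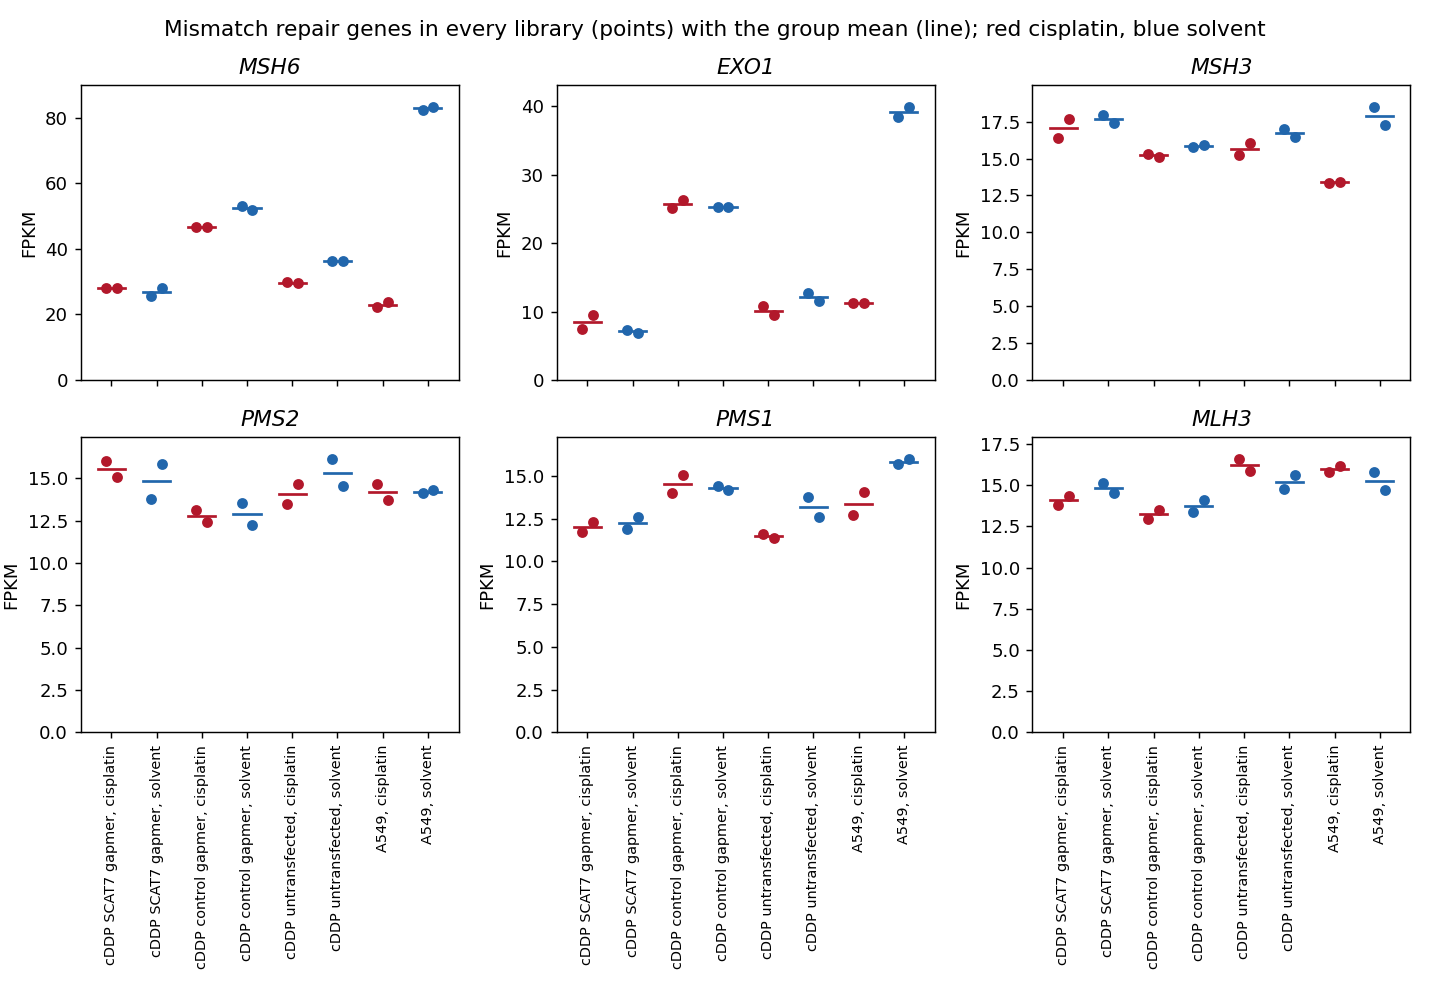
FPKM (y axis, from 0) of the 6 mismatch repair genes in each library (points, red cisplatin and blue solvent) of the 8 groups (x axis), with the group mean as a line. MSH6 and EXO1 are highest in A549 in solvent and high with the control gapmer, while MSH3, PMS2, PMS1 and MLH3 stay between 11.4 and 18.5 FPKM in all libraries.

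Each comparison was tested in 1 limma fit of log2(FPKM + 0.5) over all 16 libraries and 17198 genes, two-sided, with a threshold of 0.05 on the Benjamini-Hochberg adjusted p, and every log2 change is on that scale with its standard error. Genes past the threshold are said to have risen or fallen. In untransfected A549/cDDP cisplatin lowered 1 of the 6 genes, MSH6, where 4.55% of all genes tested fell. In A549 it lowered 4 of the 6, MSH6, EXO1, MSH3 and PMS1, where 27.1% of all genes fell. With the SCAT7 gapmer, cisplatin moved 0 of the 6 past the threshold in limma and 1, EXO1, at an unadjusted p under 0.05; of all genes, 4.18% passed the threshold and 22.5% had an unadjusted p under 0.05. With the control gapmer it moved 0 of the 6 in limma and 1, MSH6, at an unadjusted p under 0.05, beside 2.53% and 14.0% of all genes. Both counts of 1 of 6 are near the share of all genes at that unadjusted p.

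The difference between lines in the response to cisplatin, tested as an interaction, was past the threshold for 3 of the 6, MSH6, EXO1 and MSH3, all less lowered in A549/cDDP; 21.5% of all genes had a positive difference past the threshold. Between the lines in cisplatin, 2 of the 6 were higher in A549/cDDP (MSH6 and MSH3), beside 37.0% of all genes, and 1, PMS1, was lower, beside 29.5%. Between the lines in solvent, 3 of the 6 were lower in A549/cDDP (EXO1, MSH6 and PMS1), beside 27.5% of all genes. Counts of 2 or 1 of 6 are near these backgrounds.

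The SCAT7 gapmer in cisplatin lowered EXO1, MSH6 and PMS1, 3 of the 6 beside 21.1% of all genes, and raised MSH3 and PMS2, 2 of the 6 beside 28.6%. In solvent it also lowered EXO1, MSH6 and PMS1, beside 22.7% of all genes, and raised MSH3, 1 of the 6 beside 33.2%. The interaction of gapmer and cisplatin was past the threshold for 0 of the 6 in limma and for 1, MSH6, at an unadjusted p under 0.05, beside 0.93% and 13.7% of all genes, so the count of 1 is again near the background. The control gapmer, set against no transfection in cisplatin, raised 3 of the 6 (EXO1, MSH6 and PMS1), beside 23.0% of all genes, and lowered 1, MLH3, beside 19.4%. In solvent it raised 2 of the 6 (EXO1 and MSH6), beside 20.7% of all genes, and lowered 1, PMS2, beside 19.0%. Transfected and untransfected cells differ in the transfection itself as well as in the oligonucleotide, and the control gapmer libraries enter both of the last 2 kinds of comparison.

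**Figure D2:**
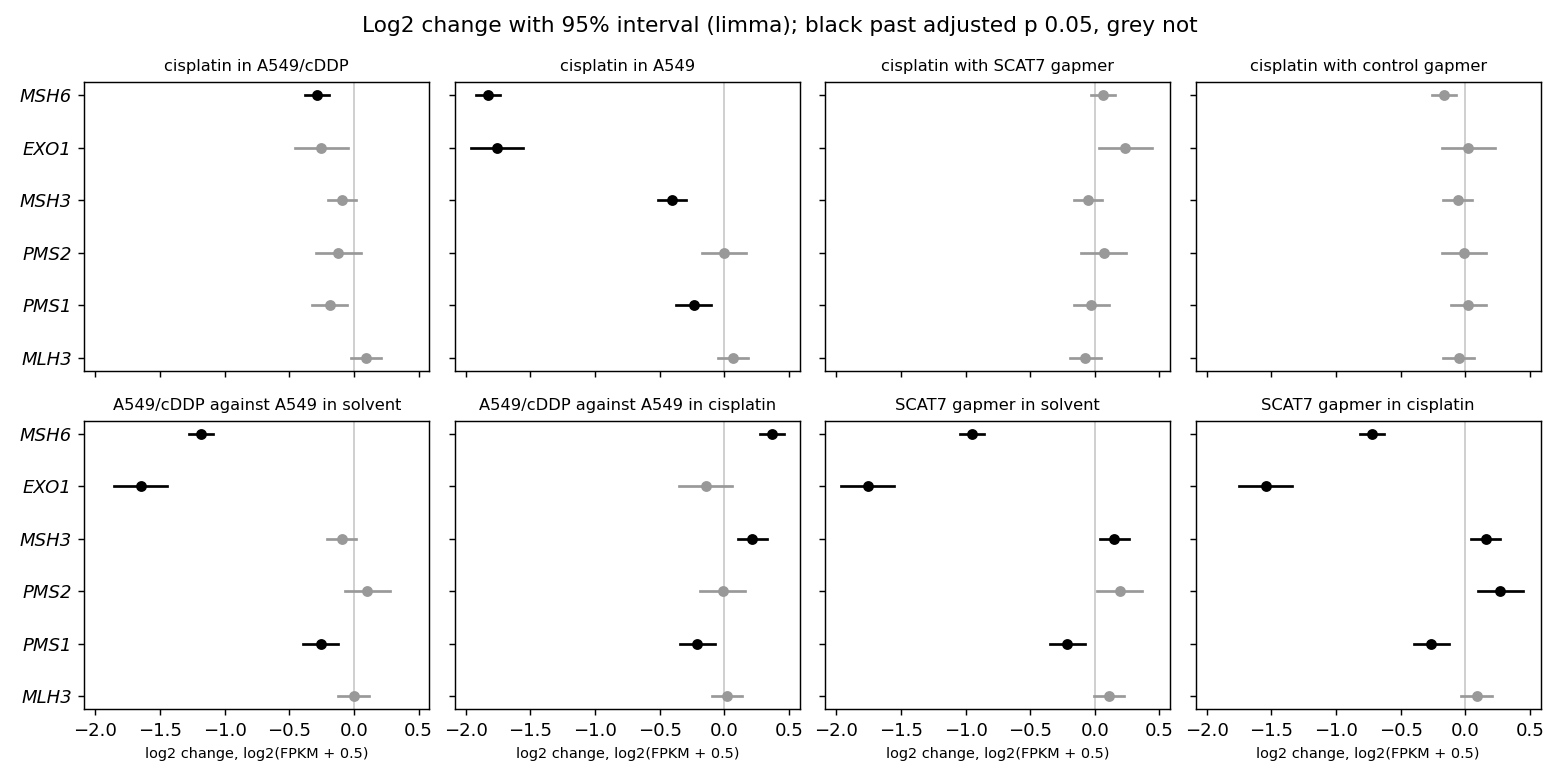
Log2 change on the log2(FPKM + 0.5) scale (x axis) of each mismatch repair gene (y axis) in 8 comparisons, with the 95% interval from limma; black points passed an adjusted p of 0.05 and grey points did not. MSH6 and EXO1 fell by 1.83 and 1.76 with cisplatin in A549, and all 6 intervals in A549/cDDP with cisplatin lie between -0.46 and 0.21.

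MSH6 (ENSG00000116062, chr2:47695530-47810101 on the plus strand in GENCODE 29, hg38) encodes the partner that gives the MutS dimer its specificity for mispaired bases. In untransfected A549/cDDP it was 29.9 and 29.5 FPKM in cisplatin, against 36.3 and 36.2 FPKM in solvent. In A549 it was 22.2 and 23.7 FPKM in cisplatin, against 82.3 and 83.3 FPKM in solvent. The cisplatin libraries lay below the solvent libraries in both lines, by far more in A549. The log2 change was -0.28 ± 0.04 in A549/cDDP (1.22-fold lower, adjusted p = 0.00207). It was -1.83 ± 0.04 in A549 (3.56-fold lower, adjusted p = 5.11e-12), where 1.24% of all genes tested had a more negative one. The difference between the lines was 1.55 ± 0.06 (adjusted p = 1.85e-09).

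The order of the 2 lines for MSH6 was opposite in cisplatin and in solvent. In cisplatin A549/cDDP was 1.29-fold higher than A549 (log2 change 0.37 ± 0.04, adjusted p = 7.91e-06). In solvent A549/cDDP was 2.27-fold lower (log2 change -1.18 ± 0.04, adjusted p = 1.75e-10). The libraries of both lines were apart in each condition.

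The 2 gapmers left MSH6 at different levels. With the SCAT7 gapmer in cisplatin it was 28.1 and 28.2 FPKM, against 46.7 and 46.8 FPKM with the control gapmer. In solvent the values were 25.8 and 28.0 FPKM with the SCAT7 gapmer, against 53.1 and 51.8 FPKM with the control gapmer. The SCAT7 gapmer libraries were all below the control gapmer libraries, with log2 changes of -0.72 ± 0.04 in cisplatin (adjusted p = 8.35e-08) and -0.95 ± 0.04 in solvent (adjusted p = 4.35e-09). The control gapmer libraries in turn were above the untransfected ones, by 0.64 ± 0.04 in cisplatin (adjusted p = 2.42e-07) and 0.53 ± 0.04 in solvent (adjusted p = 1.61e-06).

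For MSH6 in transfected cells no change with cisplatin passed the threshold. The log2 change was 0.07 ± 0.04 with the SCAT7 gapmer (adjusted p = 0.399) and -0.17 ± 0.04 with the control gapmer (adjusted p = 0.071). The difference of these changes was 0.23 ± 0.06 (adjusted p = 0.112). Without SCAT7 gapmer replicate 2 in solvent it was 0.29 and past the threshold (adjusted p = 0.0432; 0.0432 to 0.338 over the alternatives). Ordered by mean, the groups ran from A549 in cisplatin at 22.9 FPKM through the SCAT7 gapmer (28.1 FPKM in cisplatin and 26.9 in solvent), untransfected A549/cDDP (29.7 in cisplatin and 36.3 in solvent) and the control gapmer (46.7 in cisplatin and 52.5 in solvent) to A549 in solvent at 82.8 FPKM. Libraries of neighbouring groups in this order did not overlap, but with the SCAT7 gapmer the lowest cisplatin library, at 28.1 FPKM, all but met the highest solvent library, at 28.0 FPKM.

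The annotation of MSH6 shares 1785 exon bases with FBXO11, a gene on the opposite strand whose product marks proteins for degradation, and whether reads were counted by strand is not given in the sources used here. FBXO11 was 44.2 and 42.4 FPKM in A549 in cisplatin, against 53.6 and 50.8 FPKM in solvent, a change of -0.27 ± 0.05 (adjusted p = 0.000615). With the SCAT7 gapmer in solvent FBXO11 was 44.1 and 43.1 FPKM, against 40.8 and 42.1 FPKM with the control gapmer (log2 change 0.07 ± 0.05, adjusted p = 0.261). FBXO11 ran from 35.9 to 53.6 FPKM over all libraries, a narrower range than that of MSH6, and reads on the shared bases cannot be told apart without strand.

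MSH3 (ENSG00000113318, chr5:80654648-80876460, plus strand) encodes the partner that gives the MutS dimer its specificity for larger loops. In untransfected A549/cDDP it was 15.2 and 16.1 FPKM in cisplatin, against 17.0 and 16.4 FPKM in solvent. In A549 it was 13.4 and 13.4 FPKM in cisplatin, against 18.5 and 17.3 FPKM in solvent. Cisplatin libraries lay below solvent libraries in both lines, and those of A549 were the lowest of all 16. The log2 change was -0.09 ± 0.05 in A549/cDDP (adjusted p = 0.315) and -0.41 ± 0.05 in A549 (1.32-fold lower, adjusted p = 1.74e-05), and the difference between the lines was 0.31 ± 0.07 (adjusted p = 0.00325). In cisplatin MSH3 was higher in A549/cDDP than in A549, by 0.22 ± 0.05 (adjusted p = 0.00219), or by 0.13 under median ratio scaling (adjusted p = 0.0405; 0.00204 to 0.0405 over the alternatives).

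Between the lines in solvent MSH3 changed by -0.09 ± 0.05 (adjusted p = 0.113), in a comparison in which the median gene was 0.15 higher in A549/cDDP. Scaled to that median, with median ratio scaling, the change of MSH3 was -0.25 and past the threshold (adjusted p = 0.000932; 0.000932 to 0.519 over the alternatives). With the SCAT7 gapmer MSH3 was 16.4 and 17.7 FPKM in cisplatin, against 15.3 and 15.1 FPKM with the control gapmer. The solvent libraries had 17.9 and 17.4 FPKM with the SCAT7 gapmer, against 15.8 and 15.9 FPKM with the control gapmer. The gapmers' libraries did not overlap, and the rises of 0.16 ± 0.05 in cisplatin (adjusted p = 0.021) and 0.15 ± 0.05 in solvent (adjusted p = 0.0236) opposed the falls of MSH6. Each of these 2 calls was lost in 5 of 13 alternatives, with adjusted p from 0.0117 to 0.143 in cisplatin and from 0.0226 to 0.131 in solvent over the alternatives. Median ratio scaling gave 0.13 in cisplatin and 0.10 in solvent, a fit of only the compared libraries 0.16 in cisplatin, and quantile normalization 0.11 in solvent. Among the libraries left out, SCAT7 gapmer replicate 2 and either control gapmer replicate ended the call in cisplatin (0.11, 0.17 and 0.15), and SCAT7 gapmer replicate 1 and either control gapmer replicate in solvent (0.13, 0.14 and 0.16).

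**Figure D3:**
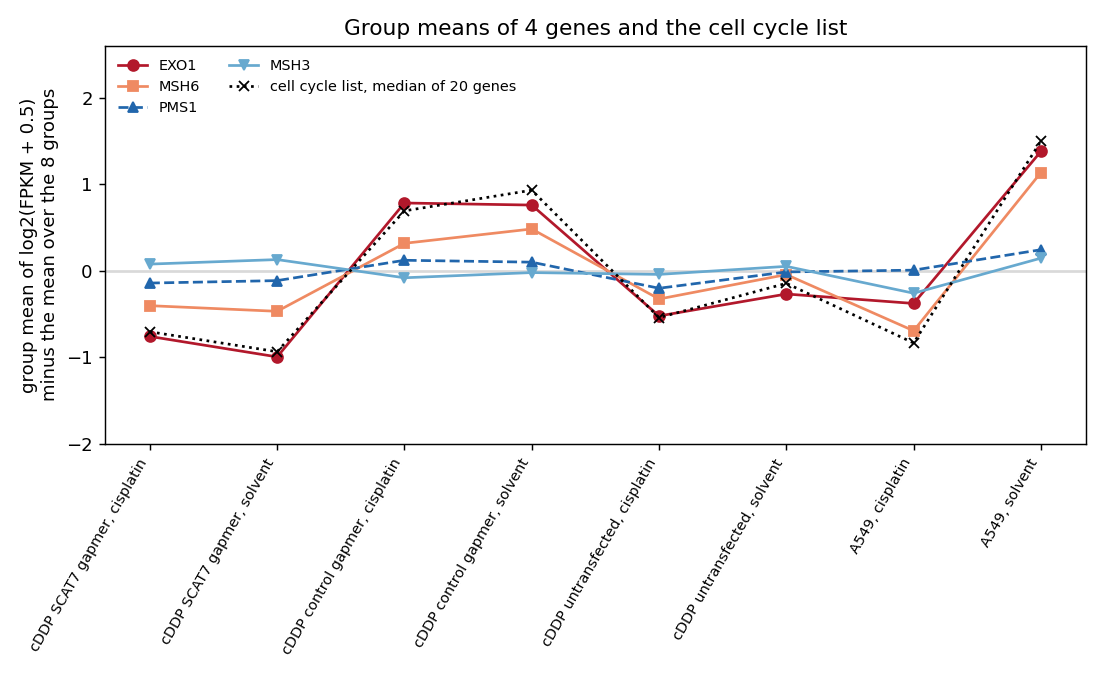
Group means of log2(FPKM + 0.5) minus the mean over the 8 groups (y axis) for EXO1, MSH6, PMS1 and MSH3 and for the median of 20 cell cycle genes, by group (x axis; lines only join points of 1 gene or list). EXO1, MSH6 and the cell cycle median are high in A549 in solvent and with the control gapmer, while MSH3 stays within 0.26 and PMS1 within 0.24 of its mean.

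Promoter windows of RefSeq genes (build GRCh38.p14, 250 bases before and 50 from the start, given here on the gene's own strand) were searched on both strands for TTTCCCGC, TTTCGCGC, TTTGCCGC and TTTGGCGC, forms of the site bound by E2F factors, which drive many S-phase genes. All 6 genes were in the table, with 11 windows. A match was found in at least 1 window of 4 of them, MSH6, MSH3, PMS2 and EXO1, and in no window of PMS1 and MLH3. By window, 5 of the 11 held a match, beside 3.31% of all 35116 windows. The windows of PMS2 overlap and share the same match, which is thus counted more than once. MSH6 and EXO1 also have windows without a match. The windows of MSH6 and EXO1 that held a match are shown because these genes had the widest ranges. Capitals mark the matches. The RefSeq start of MSH6 lies inside the longer span that GENCODE 29 gives it. A match describes these letters only, and no binding was measured.
MSH6 chr2:47782895-47783194 (plus strand): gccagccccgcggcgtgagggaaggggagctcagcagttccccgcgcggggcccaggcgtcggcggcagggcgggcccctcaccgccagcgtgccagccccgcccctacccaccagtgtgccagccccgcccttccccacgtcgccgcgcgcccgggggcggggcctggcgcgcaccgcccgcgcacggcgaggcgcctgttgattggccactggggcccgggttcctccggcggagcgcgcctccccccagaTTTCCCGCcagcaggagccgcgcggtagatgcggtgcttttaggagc
EXO1 chr1:241847954-241848253 (plus strand): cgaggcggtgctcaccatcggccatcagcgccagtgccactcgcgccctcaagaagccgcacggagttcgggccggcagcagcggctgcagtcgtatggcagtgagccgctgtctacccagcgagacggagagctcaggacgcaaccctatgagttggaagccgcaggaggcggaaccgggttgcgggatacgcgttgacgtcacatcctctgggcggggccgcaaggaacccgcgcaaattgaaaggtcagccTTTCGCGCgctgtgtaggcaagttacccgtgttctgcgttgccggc

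PMS2 (ENSG00000122512, chr7:5973239-6009125, minus strand) encodes the MutL partner that nicks the strand to be removed. Untransfected A549/cDDP had 13.5 and 14.6 FPKM in cisplatin, against 16.1 and 14.5 FPKM in solvent. Its level in A549 was 14.6 and 13.7 FPKM in cisplatin, against 14.1 and 14.3 FPKM in solvent. The libraries overlapped in both lines, and the log2 changes were -0.12 ± 0.08 in A549/cDDP (95% interval -0.29 to 0.05, adjusted p = 0.422) and -0.0032 ± 0.08 in A549 (-0.18 to 0.17, adjusted p = 0.98). The lines did not differ past the threshold either, at -0.01 ± 0.08 in cisplatin (adjusted p = 0.904) and 0.10 ± 0.08 in solvent (adjusted p = 0.255).

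Gapmers moved PMS2 slightly. In cisplatin the level was 16.03 and 15.07 FPKM with the SCAT7 gapmer, against 13.1 and 12.4 FPKM with the control gapmer, a rise of 0.27 ± 0.08 (1.21-fold, adjusted p = 0.013). In solvent it was 13.8 and 15.9 FPKM with the SCAT7 gapmer, against 13.6 and 12.2 FPKM with the control gapmer (0.19 ± 0.08, adjusted p = 0.0562). The SCAT7 gapmer libraries were above the control gapmer libraries in both conditions, narrowly so in solvent. Against untransfected cells in solvent the control gapmer gave -0.24 ± 0.08 (adjusted p = 0.0297). Leaving out SCAT7 gapmer replicate 1 or control gapmer replicate 2 ended the call in cisplatin (0.23 in both cases; adjusted p 0.0116 to 0.0853 over the alternatives), leaving out replicate 1 of either gapmer in solvent passed the threshold (0.29 and 0.26; 0.0185 to 0.388), and the fall with the control gapmer was lost in 4 of 13 alternatives (0.0203 to 0.213), among them without control gapmer replicate 2 or untransfected replicate 1 in solvent (-0.17 in both cases).

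Near-identical copies of PMS2 make its own level uncertain, since the counting could split reads among them. PMS2CL, a pseudogene of this family, averaged 18.3 ± 1.73 FPKM with the SCAT7 gapmer in solvent, against 11.3 ± 0.12 FPKM with the control gapmer (SD, n = 2 each), a change of 0.66 ± 0.07 (adjusted p = 8.39e-06). In A549 another copy, PMS2P3, averaged 11.7 ± 1.48 FPKM in cisplatin, against 4.95 ± 0.57 FPKM in solvent, a change of 1.16 (adjusted p = 8.75e-07). Of the 8 copies tested, 4 rose with cisplatin in A549, beside 33.3% of all genes tested, and 4 with the SCAT7 gapmer in solvent, beside 33.2%. AIMP2, a scaffold of tRNA synthetases that starts 120 bases from PMS2 on the other strand, fell with the SCAT7 gapmer in solvent, by 0.56 ± 0.07 (adjusted p = 1.74e-05), where PMS2 did not.

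PMS1 (ENSG00000064933, chr2:189784085-189877629, plus strand) encodes a MutL partner whose role in repair is less well defined. Untransfected A549/cDDP had 11.6 and 11.4 FPKM in cisplatin, against 13.8 and 12.6 FPKM in solvent. In A549 it was 12.7 and 14.0 FPKM in cisplatin, against 15.69 and 15.99 FPKM in solvent. Cisplatin libraries were below solvent libraries in both lines, with changes of -0.19 ± 0.06 in A549/cDDP (adjusted p = 0.0914) and -0.24 ± 0.06 in A549 (adjusted p = 0.00563), and the difference between them was 0.05 ± 0.09 (adjusted p = 0.69). The call in A549 was lost without A549 cisplatin replicate 1 (-0.17, adjusted p = 0.0695; 0.00152 to 0.0695 over the alternatives). A549/cDDP was lower than A549, with log2 changes of -0.21 ± 0.06 in cisplatin (adjusted p = 0.0103) and -0.26 ± 0.06 in solvent (adjusted p = 0.00275). Median ratio scaling moved the solvent value to -0.41 (adjusted p = 0.000114; 0.000114 to 0.0362 over the alternatives).

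PMS1 with the SCAT7 gapmer was 11.7 and 12.3 FPKM in cisplatin, against 14.0 and 15.1 FPKM with the control gapmer. In solvent PMS1 was 11.9 and 12.6 FPKM with the SCAT7 gapmer, against 14.4 and 14.2 FPKM with the control gapmer. All SCAT7 gapmer libraries were below the control gapmer libraries, and the log2 changes were -0.26 ± 0.06 in cisplatin (adjusted p = 0.00399) and -0.21 ± 0.06 in solvent (adjusted p = 0.0116). In cisplatin the SCAT7 gapmer libraries lay slightly above the untransfected ones, which had 11.6 and 11.4 FPKM. In solvent they lay below the untransfected ones, with the nearest libraries at 12.59 and 12.60 FPKM. Against no transfection the control gapmer gave a rise of 0.32 ± 0.06 in cisplatin (adjusted p = 0.00123) and 0.11 ± 0.06 in solvent (adjusted p = 0.176). The directions were those of MSH6 and EXO1, at a much smaller size. The solvent call was lost without SCAT7 gapmer or control gapmer replicate 1 (-0.18 and -0.20; adjusted p 0.0025 to 0.0847 over the alternatives), and the call between lines in cisplatin without A549 replicate 2 or A549/cDDP replicate 2 (-0.14 and -0.20; 0.00156 to 0.114). ORMDL1, a regulator of sphingolipid synthesis that starts 286 bases from PMS1 on the other strand, was higher in A549/cDDP than in A549, by 0.35 ± 0.06 in cisplatin (adjusted p = 0.000232) and 0.24 ± 0.06 in solvent (adjusted p = 0.00315), where PMS1 was lower. The annotations of ORMDL1 and PMS1 share 103 exon bases, on which reads cannot be told apart without strand. ORMDL1 ran from 33.3 to 46.0 FPKM over all libraries, above PMS1.

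MLH3 (ENSG00000119684, chr14:75013764-75051532, minus strand) encodes the MutL partner known for crossovers in meiosis. Untransfected A549/cDDP had 16.6 and 15.9 FPKM in cisplatin, against 14.8 and 15.6 FPKM in solvent. In A549 it was 15.82 and 16.16 FPKM in cisplatin, against 15.78 and 14.71 FPKM in solvent. The cisplatin libraries were slightly above the solvent ones, with changes of 0.09 ± 0.05 in A549/cDDP (95% interval -0.03 to 0.21, adjusted p = 0.354) and 0.07 ± 0.05 in A549 (-0.05 to 0.18, adjusted p = 0.309). Between the lines it changed by 0.02 ± 0.05 in cisplatin (adjusted p = 0.734) and by -0.0030 ± 0.05 in solvent (95% interval -0.12 to 0.11, adjusted p = 0.964). Median ratio scaling moved the solvent value to -0.16 and past the threshold (adjusted p = 0.0239; 0.0239 to 1 over the alternatives).

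With the control gapmer in cisplatin MLH3 was 12.9 and 13.5 FPKM, against 16.6 and 15.9 FPKM in untransfected cells. This was its only call in the 12 comparisons (log2 change -0.29 ± 0.05, adjusted p = 0.00103). In solvent the control gapmer libraries were 13.4 and 14.1 FPKM, against 14.8 and 15.6 FPKM in untransfected cells (-0.14 ± 0.05, adjusted p = 0.0535). The libraries were apart in both conditions, and here MLH3 was lower where MSH6 and EXO1 had risen. In solvent the call depended on the setting, passing the threshold with quantile normalization (-0.17) and with a filter of 1 FPKM (-0.14; adjusted p 0.0244 to 0.275 over the alternatives). SCAT7 gapmer and control gapmer did not differ past the threshold, at 0.09 ± 0.05 in cisplatin (adjusted p = 0.201) and 0.11 ± 0.05 in solvent (adjusted p = 0.108).

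EXO1 (ENSG00000174371, chr1:241847967-241895148, plus strand) encodes the exonuclease that removes the mismatched stretch, and its range was the widest of the 6. In untransfected A549/cDDP it was 10.8 and 9.45 FPKM in cisplatin, against 12.8 and 11.5 FPKM in solvent. In A549 it was 11.2 and 11.2 FPKM in cisplatin, against 38.3 and 39.9 FPKM in solvent. The A549/cDDP groups were close but did not overlap, and the A549 groups were far apart. The log2 change was -0.25 ± 0.09 in A549/cDDP (adjusted p = 0.129) and -1.76 ± 0.09 in A549 (3.38-fold lower, adjusted p = 6.48e-09), and the difference between the lines was 1.51 ± 0.13 (adjusted p = 1.55e-06). In cisplatin the lines did not differ past the threshold (-0.14 ± 0.09, adjusted p = 0.193), though median ratio scaling gave -0.23 and an adjusted p of 0.0474 (0.0474 to 0.695 over the alternatives). In solvent A549/cDDP was 3.14-fold lower than A549 (-1.65 ± 0.09, adjusted p = 9.51e-09).

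EXO1 with the SCAT7 gapmer was 7.52 and 9.57 FPKM in cisplatin, against 25.1 and 26.2 FPKM with the control gapmer. In solvent it was 7.37 and 6.89 FPKM with the SCAT7 gapmer, against 25.3 and 25.2 FPKM with the control gapmer. The SCAT7 gapmer libraries lay far below the control gapmer ones, and those in solvent also lay below every untransfected library. In cisplatin they overlapped the untransfected A549/cDDP libraries, which had 10.8 and 9.45 FPKM. Against the control gapmer EXO1 was 2.91-fold lower in cisplatin (log2 change -1.54 ± 0.09, adjusted p = 1.05e-07). In solvent it was 3.38-fold lower (-1.76 ± 0.09, adjusted p = 1.85e-08), and 0.72% of all genes tested had a more negative change. The control gapmer raised EXO1 over untransfected cells by 1.31 ± 0.09 in cisplatin (2.47-fold, adjusted p = 4.57e-07) and 1.03 ± 0.09 in solvent (2.04-fold, adjusted p = 4.23e-06).

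For EXO1 in transfected cells no change with cisplatin passed the threshold, at 0.24 ± 0.09 with the SCAT7 gapmer (adjusted p = 0.162) and 0.02 ± 0.09 with the control gapmer (adjusted p = 0.951). Without SCAT7 gapmer replicate 1 in cisplatin the change with the SCAT7 gapmer was 0.40 and passed the threshold (adjusted p = 0.0447; 0.0447 to 0.634 over the alternatives). The difference of the 2 changes was 0.21 ± 0.13 (adjusted p = 0.526).

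MSH6 and MSH3 compete for the same MutS partner, so the ratio of their FPKM was formed within each library. It was 1.97 and 1.83 in untransfected A549/cDDP in cisplatin, against 2.13 and 2.20 in solvent. In A549 it was 1.66 and 1.77 in cisplatin, against 4.45 and 4.82 in solvent. Cisplatin libraries were lower in both lines, and the A549 solvent libraries stood above all others. Gapmer-treated cells differed as well, and with the SCAT7 gapmer the ratio was 1.71 and 1.59 in cisplatin, against 3.04 and 3.10 with the control gapmer. In solvent it was 1.44 and 1.61 with the SCAT7 gapmer, against 3.36 and 3.25 with the control gapmer. The level of the ratio depends on the gene lengths used by the authors, which are not given in the sources used here, while its order across libraries does not. The MutL partners kept their balance more closely: of the summed FPKM of PMS2, PMS1 and MLH3, PMS1 made up between 27.5% (untransfected A549/cDDP in cisplatin) and 35.8% (control gapmer in cisplatin) by group mean, and PMS2 between 31.4% and 37.3%.

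**Figure D4:**
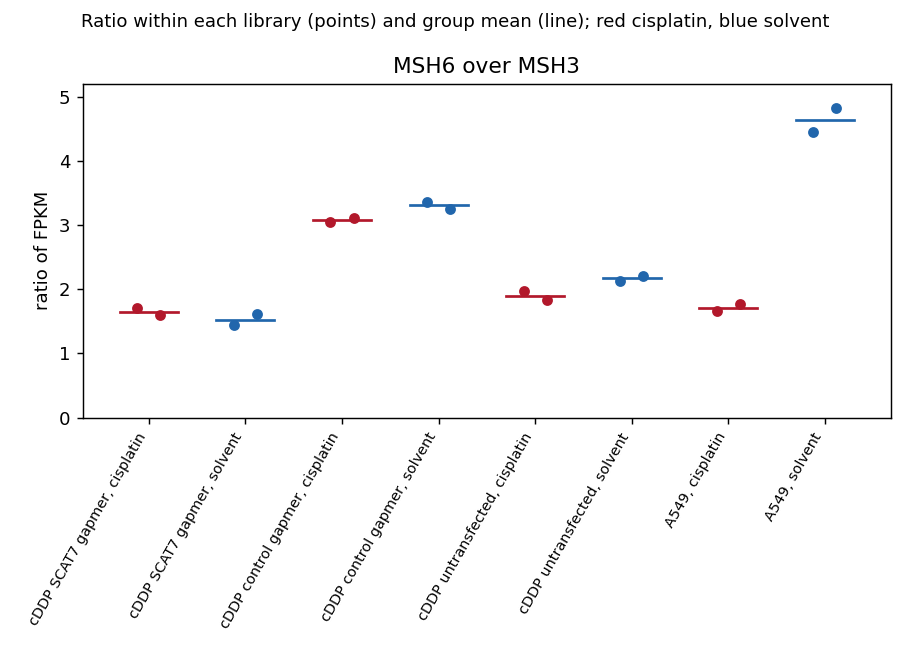
Ratio of FPKM of MSH6 to MSH3 (y axis, from 0) within each library (points, red cisplatin and blue solvent) of the 8 groups (x axis), with group means as lines. The ratio is highest in A549 in solvent (mean 4.63) and lowest with the SCAT7 gapmer in solvent (mean 1.52).

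The genes whose pattern was most like that of each member were picked by Pearson's r over the 8 group means of log2(FPKM + 0.5), among the 10461 genes that averaged 5 FPKM or more. For EXO1 they were NUP107, CENPN and TEAD2 (all 0.997), and for MSH6 NUP37, MCM6 and DBF4 (all 0.99). For MSH3 they were CRADD (0.98), KLHL2 (0.96) and CANX (0.96). For PMS1 they were RAB8A and CDC23 (both 0.97), for MLH3 RHOQ (0.97), MTIF3 (0.94) and CPNE3 (0.94), and for PMS2 TRMT1L (0.90), DYNC2H1 (0.89) and KIF13A (0.89). Among the members r was 0.93 between MSH6 and EXO1 and 0.92 between PMS1 and EXO1, against 0.05 between MSH3 and EXO1 and -0.65 between PMS2 and EXO1. The 8 points share lines, treatments and sequencing, and these are the highest values of a search over many genes.

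EXO1 and MSH6 largely moved with a list of 20 cell cycle genes, whose summed level is given here beside theirs. The sum ran from 799 to 855 FPKM in untransfected A549/cDDP in cisplatin, against 1118 to 1128 FPKM in solvent. It ran from 770 to 777 FPKM in A549 in cisplatin, against 2950 to 2969 FPKM in solvent. With the SCAT7 gapmer in cisplatin it ran from 650 to 720.0 FPKM, against 1866 to 1878 FPKM with the control gapmer, and in solvent from 552 to 616 FPKM, against 2151 to 2175 FPKM. The sum, EXO1 and MSH6 were thus all highest in A549 in solvent, followed by the control gapmer groups. The low groups were not ordered alike: the sum and EXO1 were lowest with the SCAT7 gapmer in solvent, and MSH6 in A549 in cisplatin. The part of the sum in the changes of EXO1 and MSH6 was not tested. Between the lines in cisplatin, where MSH6 was higher in A549/cDDP and EXO1 changed by -0.14, 14 of the 20 genes were higher and 4 lower (median 0.35, all genes tested 0.08). Of all genes tested, 37.0% were higher and 29.5% lower there. Cisplatin in A549 lowered 19 of the 20 genes (median -2.22, all genes tested 0.06), beside 27.1% of all genes, led by PLK1 (-3.30), MCM6 (-3.09) and CCNA2 (-2.68). All 20 were lower with the SCAT7 gapmer in solvent (median -1.76, all genes tested 0.06), where 22.7% of all genes fell. All 20 were higher with the control gapmer than without transfection in solvent (median 1.10, all genes tested -0.01), where 20.7% of all genes rose. List genes also passed the threshold where EXO1 did not. Cisplatin lowered 17 of the 20 in untransfected A549/cDDP (median -0.38), where MSH6 and 4.55% of all genes fell. It lowered 7 with the control gapmer (median -0.20) and raised 7 with the SCAT7 gapmer (median 0.22). There 2.53% and 4.18% of all genes passed in either direction. In the gapmer by cisplatin interaction 10 were higher (median 0.38), beside 0.93%. MSH6 passed in none of these transfected comparisons.

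The machinery that completes repair after EXO1, a list of 15 genes for the sliding clamp PCNA, its loader RFC, the strand-binding protein RPA, DNA polymerase delta, LIG1 and HMGB1, mostly had the same directions as EXO1. In A549/cDDP cisplatin lowered 6 of the 15 (median -0.16), with RFC3 at -0.44, RFC4 at -0.30 and POLD3 at -0.30. In A549 it lowered 12 of the 15 (median -1.02), with RFC3 at -1.73, RFC4 at -1.54 and POLD3 at -1.43. The 3 that rose, where 33.3% of all genes tested did, and which were named after their values were seen, were POLD4 (0.91), PCNA (0.72) and LIG1 (0.14). The SCAT7 gapmer in cisplatin lowered 14 of the 15 (median -0.94). In solvent it lowered 13 and raised 1, POLD4 (median -1.04), with RFC3 at -1.57, RFC4 at -1.51 and RFC5 at -1.50. The control gapmer raised 14 over untransfected cells in cisplatin (median 0.91), with RFC3 at 1.40. The median of all genes tested lay between 0.0029 and 0.06 in these 5 comparisons, and their shares of calls are those given above. PCNA, which EXO1 works with on DNA, rose with cisplatin in A549 while EXO1 fell.

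Of 8 genes whose products work with the mismatch repair complexes, cisplatin in A549 lowered 6 (median -0.31; 27.1% of all genes fell), led by the helicase BRIP1 (-1.51), the helicase subunit MCM8 (-0.96) and its partner MCM9 (-0.52). The SCAT7 gapmer in solvent lowered 5 of the 8 and raised 2 (median -0.18), with MCM8 at -1.16, BRIP1 at -0.61 and MBD4, a glycosylase, at -0.26. Of all genes tested, 22.7% fell and 33.2% rose there, so the count of 2 that rose is near the background. The control gapmer in cisplatin raised 7 of the 8 over untransfected cells (median 0.24; 23.0% of all genes rose), with BRIP1 at 1.70 and MCM8 at 1.07. Of 5 tested genes that signal from mismatch repair after platinum, cisplatin in A549/cDDP lowered 1, TOPBP1 (-0.23), an activator of ATR, beside 4.55% of all genes. In A549 it lowered 3, the checkpoint kinase CHEK1 (-1.39), TOPBP1 (-1.26) and the kinase ABL1 (-0.19), beside 27.1% of all genes. The gene of the p53 relative TP73 was below the filter.

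The meiotic MutS relatives MSH4 and MSH5 behaved differently with the SCAT7 gapmer. MSH5 was 1.97 ± 0.06 FPKM with the SCAT7 gapmer in solvent, against 5.83 ± 0.10 FPKM with the control gapmer (mean ± SD, n = 2 each), a change of -1.36 (adjusted p = 9.65e-07), and an annotated read-through gene overlaps it, so reads could be split between them. MSH4, listed below the filter, was 0.981 and 1.06 FPKM with the SCAT7 gapmer in cisplatin, against 0.0576 and 0.0362 FPKM with the control gapmer. In solvent MSH4 was 1.98 and 1.52 FPKM with the SCAT7 gapmer, against 0.0284 and 0.0142 FPKM with the control gapmer. In the other 12 libraries MSH4 was at most 0.101 FPKM, below all 4 libraries with the SCAT7 gapmer. Some markers of other lineages were also highest in these 4 libraries: CD68 ran from 0.405 to 0.958 FPKM with the SCAT7 gapmer, against at most 0.148 FPKM in the other 12 libraries, and ALB from 0.279 to 0.590 FPKM, against at most 0.151 FPKM. DCN ran from 0 to 0.377 FPKM with the SCAT7 gapmer, against at most 0.0233 FPKM. PECAM1 ran from 0.149 to 0.235 FPKM, against at most 0.144 FPKM. The rest of the list was not highest there. COL1A1 ran from 25.9 to 29.2 FPKM with the SCAT7 gapmer, against 7.20 to 52.7 FPKM in the other 12 libraries. PTPRC reached 0.0757 FPKM, against 0.115 FPKM, VWF reached 0.0397 FPKM, against 0.118 FPKM, and CD3E was 0 with the SCAT7 gapmer. The whole list of 8 summed to between 27.3 and 31.0 FPKM with the SCAT7 gapmer. Over all A549/cDDP libraries it was 27.3 to 52.8 FPKM. The part of these markers in the change of MSH4 was not tested. Tested with no filter, the change was 1.48 ± 0.10 in cisplatin (adjusted p = 2.97e-06) and 2.10 ± 0.10 in solvent (adjusted p = 1.53e-07) on the log2(FPKM + 0.5) scale, which understates changes of low genes.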

How the data were processed

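The deposited values are FPKM per gene and library, 1 column for each of 16 libraries. The submitters' processing notes name TopHat2, HTSeq 0.6.1 and the build hg38 without their roles; annotation, gene lengths and strand setting are not given in the sources used here. Symbols and positions came from GENCODE 29, which matched 56868 of 60448 identifiers, and promoter sequences from RefSeq (GRCh38.p14). FPKM keeps the library composition, so a shift of abundant genes moves all others.

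Values were tested as log2(FPKM + 0.5) with limma 3.58.1 in R 4.3.3, with a trended prior and 1 mean for each of 8 groups of 2, on the 17198 genes that averaged 0.5 FPKM or more, two-sided, Benjamini-Hochberg adjusted, threshold 0.05. The fit was also run on simulated data with 200 genes changed in 1 group and the groups otherwise alike. That setting lacks the wide differences between lines and gapmers seen here, and its outcome is not reported here. Whether the 2 libraries of a group came from separate cultures is not given in the labels, and the p-values then cover the spread between libraries alone, which may be technical. Depth was estimated from the steps of low FPKM values: 72.1% to 78.5% of low values per library were whole reads within 0.02, so fragment numbers are approximate and cover counting error only.

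The genes, lists and alternatives were chosen with earlier results of these data known. Named were the 6 genes, up to 3 called genes with the largest change per list and comparison, genes on the other strand starting within 1000 bases, and the 3 genes most correlated with each; some genes that this rule names are not reported here. Alternatives were another pseudocount, filter, scaling, prior, the compared libraries alone, a replicate block and each library left out.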

Additional observations from a re-analysis of the deposited data

Results flagged for a closer look

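The response to cisplatin differed between A549/cDDP and A549 for 3 of the 6 genes, by the interaction term of limma, where 21.5% of all genes tested had a positive difference past the threshold. The difference of log2 changes, A549/cDDP minus A549, was 1.55 for MSH6 (95% interval 1.42 to 1.68, adjusted p = 1.85e-09), 1.51 for EXO1 (1.22 to 1.79, adjusted p = 1.55e-06) and 0.31 for MSH3 (0.16 to 0.47, adjusted p = 0.00325). In each case both A549 cisplatin libraries were below both A549 solvent libraries. A549/cDDP in solvent was already lower than A549 in solvent for MSH6 and EXO1, and A549/cDDP is kept in cisplatin between experiments. The part of either in these differences was not tested.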

How the results depend on the processing

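Of 72 results for the 6 genes, 30 passed the threshold, and 23 of them kept their call under every alternative run; the other 7, for MSH3, PMS1 and PMS2, lost it under at least 1. MSH6 and EXO1 kept every call they had. Another pseudocount, the prior without a trend and the replicate block changed no count of the 6 genes. Under median ratio scaling 5 of the 6 genes passed the threshold between the lines in solvent, against 3 in the analysis as reported. MSH3 at -0.25 and MLH3 at -0.16 were added. The scaling moved all 6 genes down in this comparison, PMS2 from 0.10 to -0.047 and PMS1 from -0.26 to -0.41 among them. Unscaled, the median gene was 0.15 higher in A549/cDDP, and what lies behind that shift was not tested.

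With 1 library left out in turn, the number of the 6 genes past the threshold ran from 0 to 1 for cisplatin with the SCAT7 gapmer, from 3 to 4 for the SCAT7 gapmer in cisplatin (5 with all libraries) and from 0 to 1 for the gapmer by cisplatin interaction. Over all genes the number past the threshold for cisplatin in A549/cDDP was 1393, against 417 with only the compared libraries and 509 to 1049 with 1 library left out. For cisplatin with the control gapmer it was 435, against 270 with only the compared libraries and 137 to 179 with 1 left out. For cisplatin with the SCAT7 gapmer it was 719, against 0 with only the compared libraries, 308 without a trend and 9 to 1626 with 1 left out. For the gapmer by cisplatin interaction it was 160, against 10 with only the compared libraries, 262 with no filter, 75 without a trend and 45 to 462.

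The sign turned only in results that had not passed the threshold. Median ratio scaling gave -0.011 for PMS1 and -0.0095 for EXO1 with cisplatin under the control gapmer, -0.047 for PMS2 between the lines in solvent, -0.064 for MLH3 between the lines in cisplatin and 0.0011 for MLH3 in the gapmer by cisplatin interaction. Quantile normalization gave -0.0078 for PMS1 with cisplatin under the control gapmer and 0.0094 for MLH3 in that interaction. With 1 library left out, PMS2 ran from -0.050 to 0.043 with cisplatin in A549, from -0.082 to 0.060 with the control gapmer, from -0.029 to 0.17 with the SCAT7 gapmer, from -0.071 to 0.046 between the lines in cisplatin and from -0.018 to 0.18 in the gapmer interaction. PMS1 ran from -0.030 to 0.074 with cisplatin under the control gapmer, from -0.066 to 0.0097 under the SCAT7 gapmer, from -0.020 to 0.12 in the line by cisplatin interaction and from -0.10 to 0.0020 in the gapmer interaction. MLH3 ran from -0.024 to 0.074 in the line by cisplatin interaction, from -0.052 to 0.046 between the lines in solvent, from -0.0082 to 0.053 in cisplatin and from -0.059 to 0.017 in the gapmer interaction. EXO1 ran from -0.0065 to 0.054 with cisplatin under the control gapmer, and MSH3 from -0.044 to 0.059 in the gapmer interaction.

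Same-numbered libraries showed little shared deviation. Over 28 pairs of groups, their deviations correlated at -0.187 to 0.119 (median 0.0065), with 2 above 0.1. These values cannot show whether same-numbered libraries were prepared together. With the replicate block, 1 of the 6 genes passed the threshold for cisplatin in A549/cDDP and 4 in A549, the same counts as without it. Groups of 2 leave a lone library, assumed to vary like the other groups, when 1 is left out.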
